A study of Rattus norvegicus with 36 samples.

Results

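*Plagl1* and 7 other genes of the imprinted gene network were followed through H9C2 cells given miR-125b or its isomiRs. The 8 symbols, *Plagl1*, *Peg3*, *Cdkn1c*, *Grb10*, *Dlk1*, *Mest*, *Peg10* and *Zdbf2*, were matched to the gene names in the deposited tables, which list 24275 genes. Tables carried 6 of the 8 names. *Dlk1* and *Peg10* were not found under those names and have no value here. The set was chosen by the level of *Plagl1*, which an earlier analysis found much lower in Hypoxia Trim AGU than in Hypoxia miR-125b. The values of all members in that contrast, and in the interaction built on it, are therefore given as a description, and so are those of *Plagl1* in every comparison that uses the Hypoxia Trim AGU or the Hypoxia miR-125b libraries. None of these values has a p-value or enters a count of calls.

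An imprinted gene is expressed mainly from the copy inherited from one parent. Many imprinted genes act on growth of the embryo and fall silent after birth, and a good number of them are expressed together in growing tissues and in muscle progenitors. *Plagl1*, also called *Zac1*, encodes a zinc-finger transcription factor that slows the cell cycle and promotes apoptosis when it is overexpressed, and it is known to regulate other imprinted genes. *Peg3* encodes another zinc-finger protein, with roles in p53-linked cell death and in muscle stem cells. *Grb10* encodes an adaptor that restrains insulin and IGF receptor signalling, *Mest* encodes a protein of the hydrolase fold linked to growth, and *Cdkn1c* encodes the cell cycle inhibitor p57.

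H9C2 is a line of rat cardiac myoblasts grown from embryonic heart. Each culture received a mimic at 25 nmol/L, and after 24 h of transfection it spent a further 24 h in hypoxia or in normoxia. The 6 mimics were the mimic control (MC), miR-125b and 4 isomiRs of it, of which Plus A is longer and the other three (Trim A, Trim AG and Trim AGU) are shorter. Hypoxic cells were in serum-free low-glucose medium and normoxic cells were in fresh standard medium, so oxygen and medium cannot be told apart in any comparison of hypoxia with normoxia. Each of the 12 groups had 3 libraries of poly-A RNA. Counts of 33 libraries from 11 groups were used, and Normoxia MC is present only as a group mean.

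The mimics are shown because the comparisons turn on a few bases at the 3′ end, while the seed in capitals, bases 2 to 8 from the 5′ end, is the same in all of them. The miR-125b line is the mature rat sequence in RefSeq (GRCr8, chr11:29732588-29732609, plus strand, in *Mir125b2*), and the other lines were built from it. The sequences of the mimics themselves were not used here, and the names were read as bases lost from the 3′ end inwards, first A, then G, then U, so that Trim AG lacks the last 2 bases and Trim AGU the last 3.
miR-125b: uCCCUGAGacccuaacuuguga
Plus A: uCCCUGAGacccuaacuugugaa
Trim A: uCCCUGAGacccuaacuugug
Trim AG: uCCCUGAGacccuaacuugu
Trim AGU: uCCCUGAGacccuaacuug
These lengths run from 19 to 23 nucleotides, with 22 for miR-125b.

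Libraries held 28361216 to 42672584 counts, and the 3 libraries of Hypoxia Trim AG were the deepest. Levels are given as CPM, the count divided by the library total and multiplied by 1e6, with the mean ± SD of 3 libraries. The Hypoxia Trim AGU libraries spread more than the rest, with a root mean square deviation from the group mean of 0.274 to 0.514 on the log2 scale against 0.144 to 0.239 in the other 30 libraries. Replicate 1 of Normoxia miR-125b and of Normoxia Plus A also stood apart: *Cav1*, chosen after its values were seen, was at 102, 282 and 263 CPM in the 3 libraries labelled Normoxia miR-125b and at 269, 98.0 and 98.3 CPM in those labelled Normoxia Plus A. Whether the labels of these 2 libraries are exchanged was not tested. Several fold changes that rest on them are given with and without them, while correlations, group means and most shares of all genes include them. Of 5 muscle markers, *Myod1* (17.1 to 146 CPM), *Myog* (10.4 to 359 CPM), *Tnnt2* (9.22 to 316 CPM) and *Acta1* (17.4 to 181 CPM) were present in every library and *Des* was low (0.855 to 4.98 CPM), while the adult cardiomyocyte markers *Myh6*, *Nppa* and *Ryr2* stayed at or below 0.894 CPM. The fibroblast gene *Col1a1* was at 5403 to 27702 CPM and *Thy1* at 79.8 to 261 CPM, with *Pdgfra* at or below 0.846 CPM, and the leukocyte gene *Ptprc* stayed at or below 0.188 CPM. The endothelial markers *Pecam1* and *Cdh5* were not found under those names.

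Of the 6 members with a row, 4 were well detected. *Grb10* (ENSRNOG00000004290, chromosome 14, 92021851 to 92117923, minus strand) and *Peg3* (ENSRNOG00000014791, chromosome 1, 70222964 to 70237443, plus strand) had means of 243 and 223 CPM over the 33 libraries. *Mest* (ENSRNOG00000048088, chromosome 4, 58053041 to 58063138, plus strand) and *Plagl1* (ENSRNOG00000025587, chromosome 1, 7252349 to 7259035, plus strand) had means of 35.1 and 26.4 CPM. Coordinates are those of the tables, whose genome build is not given in the sources used here. Per gene length, in the deposited FPKM, the order was *Grb10* (46.0), *Mest* (34.5), *Peg3* (26.1) and *Plagl1* (5.57). All 4 are protein-coding genes, and all 4 passed the filter on low counts in every comparison.

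The growth arrest gene *Cdkn1c* (chromosome 1, 216661080 to 216663721, minus strand) had 5 counts in all, in 2 of the 33 libraries. *Zdbf2* (chromosome 9, 70059683 to 70089778, plus strand), an imprinted gene of little known function, had 11 counts in 6 libraries. Neither had more than 3 counts in a library, which is 0.0703 to 0.106 CPM at these depths, and neither passed the filter on low counts. A difference between mimics was therefore not detectable for *Cdkn1c* or *Zdbf2*.

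*Plagl1* was lowest with Trim AGU in both hypoxia and normoxia. In bulk RNA a lower level can mean fewer expressing cells or less RNA per cell, and these cannot be told apart here or for any other gene below. In hypoxia its level was 34.9, 40.2 and 41.4 CPM with MC (38.8 ± 3.46), 31.3, 35.5 and 36.0 CPM with miR-125b (34.3 ± 2.56), and 59.7, 53.0 and 50.8 CPM with Plus A (54.5 ± 4.61). The Plus A libraries all lay above the other 30 libraries. Trim A gave 38.6, 22.1 and 22.3 CPM (27.6 ± 9.49), and Trim AG gave 24.5, 16.8 and 20.8 CPM (20.7 ± 3.83). With Trim A, replicate 1 sat in the range of miR-125b and MC while replicates 2 and 3 sat in the range of Trim AG. Trim AGU gave 3.91, 0.973 and 2.64 CPM (2.51 ± 1.47), below every library of the other mimics.

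In normoxia *Plagl1* lay in a narrow band with 4 of the 5 mimics. It was at 26.6, 23.6 and 22.4 CPM with miR-125b (24.2 ± 2.20), at 23.3, 28.9 and 29.9 CPM with Plus A (27.4 ± 3.59), and at 25.9, 22.1 and 25.1 CPM with Trim A (24.4 ± 2.03). These 3 groups overlapped each other. Trim AG gave 29.8, 29.2 and 31.1 CPM (30.02 ± 0.985), and Trim AGU gave 3.39, 8.41 and 5.25 CPM (5.69 ± 2.54). The lowest normoxic library outside Trim AGU, at 22.1 CPM, was thus still well above the highest Trim AGU library, at 8.41 CPM.

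**Figure D1:**
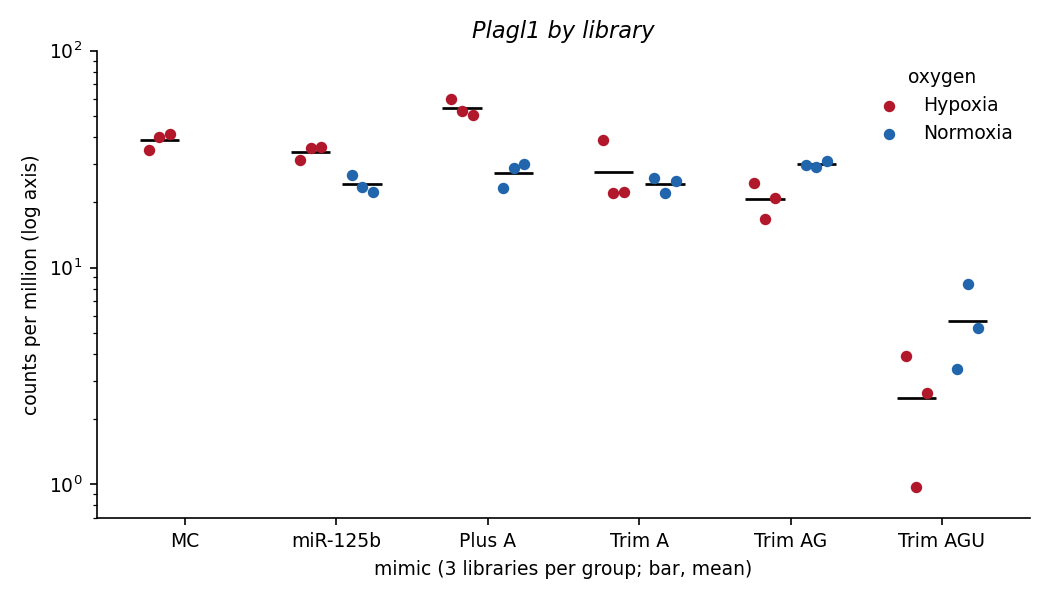
Level of *Plagl1* in each of 33 libraries, in CPM on a log axis, by mimic (horizontal axis) and oxygen (red, hypoxia; blue, normoxia); each point is a library and each bar the mean of 3. The 6 Trim AGU libraries sit between 0.973 and 8.41 CPM, below all other libraries, which start at 16.8 CPM.

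Over the 11 groups, the mean of *Plagl1* differed 21.7-fold between the highest, Hypoxia Plus A, and the lowest, Hypoxia Trim AGU. Of the 10 pairs of neighbours in the order of the group means, 3 had libraries that did not overlap: Hypoxia Plus A over Hypoxia MC, Hypoxia miR-125b over Normoxia Trim AG, and Hypoxia Trim AG over Normoxia Trim AGU. The remaining neighbours, including Hypoxia MC with Hypoxia miR-125b and the Trim AGU groups with each other, had libraries that overlapped.

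*Peg3* had another pattern: it was highest with MC and lowest with Trim AG and Trim AGU in hypoxia, and among the 5 mimics with libraries in normoxia it was highest with Trim AGU. In hypoxia MC gave 378, 384 and 402 CPM (388 ± 12.5), miR-125b 212, 225 and 221 CPM (219 ± 6.73) and Plus A 265, 256 and 250 CPM (257 ± 7.55). These groups did not overlap, and all MC libraries were above those of every mimic of miR-125b. Trim A gave 207, 161 and 164 CPM (177 ± 25.5), Trim AG 121, 96.6 and 106 CPM (108 ± 12.1) and Trim AGU 155, 58.5 and 134 CPM (116 ± 50.9). Trim AG and Trim AGU overlapped, with replicate 2 of Trim AGU the lowest of all 33 libraries.

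In normoxia *Peg3* was at 215, 206 and 226 CPM with miR-125b (215 ± 10.2), at 223, 200 and 210 CPM with Plus A (211 ± 11.4) and at 207, 234 and 231 CPM with Trim A (224 ± 15.1). The 3 groups overlapped. Trim AG gave 252, 278 and 256 CPM (262 ± 14.0) and Trim AGU 240, 318 and 280 CPM (279 ± 38.8), so that every normoxic library of these 2 isomiRs was above every hypoxic library of the same isomiRs. Over the 11 groups the highest mean of *Peg3*, Hypoxia MC, was 3.60-fold the lowest, Hypoxia Trim AG.

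The promoter of *Peg3* is shown because, of the 7 members with a promoter in the RefSeq table (GRCr8), it is the one that holds GGGGCCCC, a palindrome reported as a binding motif of the PLAGL1 protein. The promoters run from 250 bases before the start of the gene to 50 bases after it, both strands read the same in a palindrome, and GGGGCCCC is in 0.858% of all 33469 promoters. That share makes no allowance for base content, and the *Peg3* promoter is 62.3% G and C, above 78.8% of all promoters. The motif is also in 2 of 39 promoters of other imprinted genes (*Gnas* and *Rasgrf1*), and in 0 of 5 of genes reported as PLAGL1 targets. In *Peg3* the match, in capitals, lies 213 to 206 bases before the start, in a window at chr1:76130770-76130799 on the plus strand.
*Peg3*: gactctgcttgGGGGCCCCtaacacggact
A match is no measure of binding, and the promoters of *Plagl1*, *Dlk1*, *Mest*, *Grb10*, *Peg10* and *Zdbf2* only lack these letters in this window.

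*Mest* was highest with Plus A in hypoxia. In hypoxia it was at 46.7, 47.9 and 46.5 CPM with MC (47.1 ± 0.754), at 40.4, 43.5 and 45.1 CPM with miR-125b (43.0 ± 2.42) and at 55.4, 59.1 and 59.98 CPM with Plus A (58.2 ± 2.42). No library overlapped between these 3 groups. It was at 37.6, 34.0 and 36.1 CPM with Trim A (35.9 ± 1.82), at 34.2, 29.6 and 30.5 CPM with Trim AG (31.4 ± 2.41) and at 32.8, 8.82 and 26.5 CPM with Trim AGU (22.7 ± 12.4). Replicate 2 of Trim AGU was again far below its group. In normoxia the 5 group means of *Mest* lay between 26.5 CPM (Trim AGU) and 34.0 CPM (Trim AG), and all neighbours among them overlapped. With miR-125b its replicate 1 was at 34.3 CPM against 24.9 and 26.0 CPM in the others, and with Plus A its replicate 1 was at 23.9 CPM against 31.0 and 35.2 CPM, which follows the same crossing as *Cav1*.

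*Grb10* varied least, 1.80-fold between its highest and lowest group means. In hypoxia the means were 277 ± 3.76 CPM with MC, 266 ± 3.72 CPM with miR-125b, 320 ± 22.2 CPM with Plus A, 240 ± 19.96 CPM with Trim A, 230 ± 18.3 CPM with Trim AG and 178 ± 32.9 CPM with Trim AGU. In normoxia they were 249 ± 21.6, 250 ± 20.01, 249 ± 7.29, 199 ± 12.5 and 213 ± 38.6 CPM for the 5 mimics, from miR-125b to Trim AGU in the order just used. Its single libraries ran from 142 CPM, in Hypoxia Trim AGU replicate 2, to 346 CPM, in Hypoxia Plus A replicate 1. Hypoxia Plus A was the highest group for *Plagl1*, *Mest* and *Grb10*, and Hypoxia Trim AGU was the lowest for the same 3 genes.

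**Figure D2:**
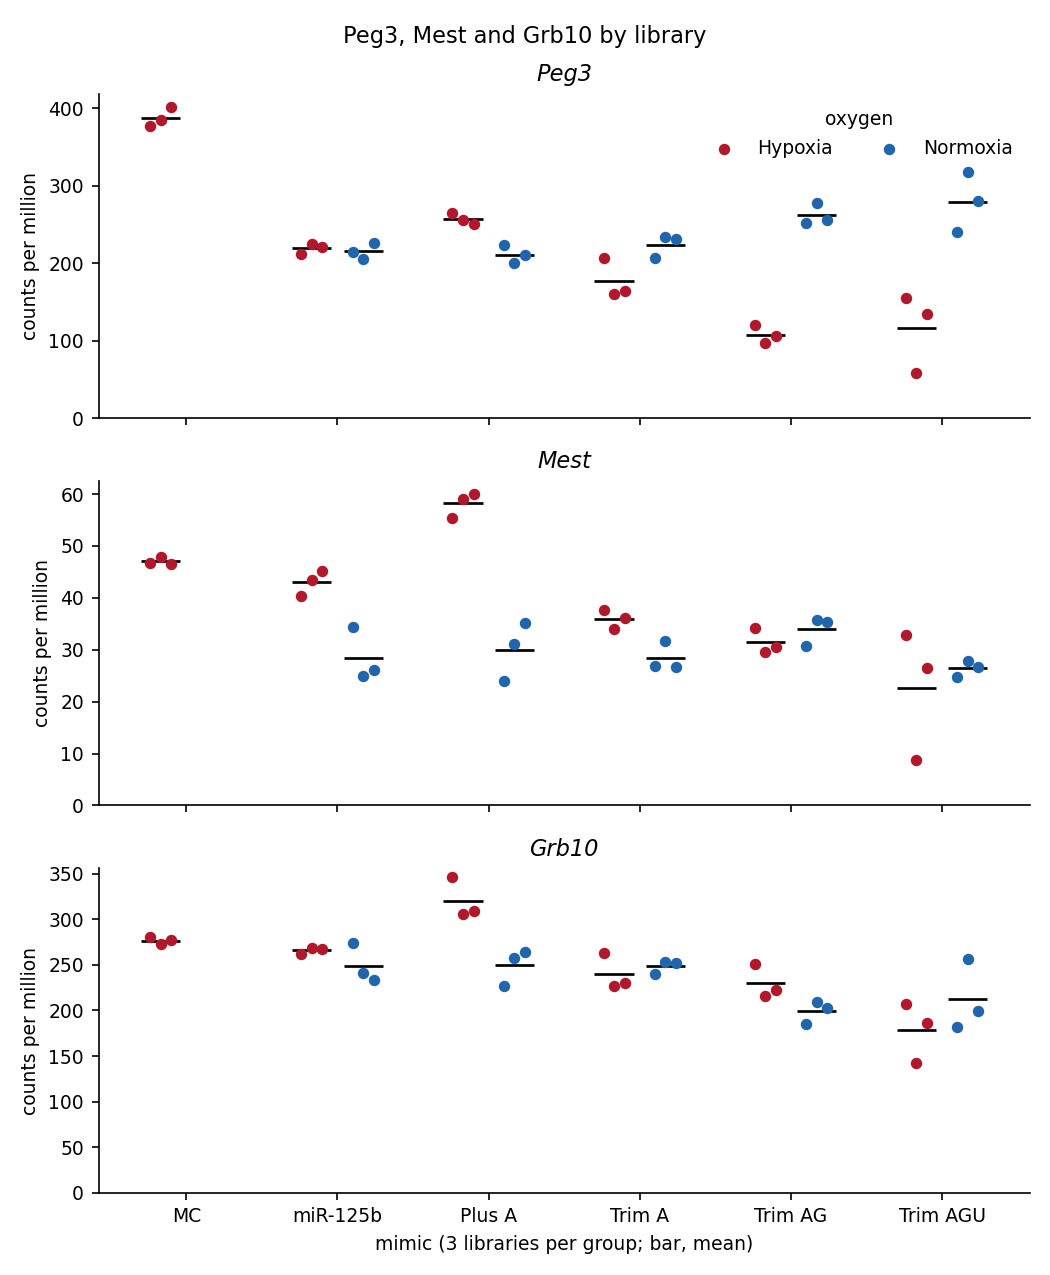
Levels of *Peg3*, *Mest* and *Grb10* in each of 33 libraries, in CPM, by mimic (horizontal axis) and oxygen (red, hypoxia; blue, normoxia); each point is a library and each bar the mean of 3. *Peg3* falls from 388 CPM with MC to 108 CPM with Trim AG in hypoxia and is at 279 CPM with Trim AGU in normoxia, while *Grb10* stays between 178 and 320 CPM.

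The effect of each mimic under hypoxia was read against MC. A gene was called at an edgeR adjusted p-value below 0.05 over all genes and a change of at least 1.5-fold. Of 18 values that are not descriptions (4 members, 5 mimics), 5 were called and all were lower with the mimic, and the 5 comparisons share the MC libraries. Over all genes tested, Trim AG had 37.2% called (20.2% as lower), Trim A had 28.1% (15.7%), Plus A had 24.8% (14.4%), Trim AGU had 23.8% (12.4%) and miR-125b had 21.9% (12.5%). *Peg3* fell with miR-125b (log2 fold change -0.79 ± 0.03 SE, adjusted p = 8.76e-09), Trim A (-1.09 ± 0.10, adjusted p = 7.15e-05), Trim AG (-1.79 ± 0.09, adjusted p = 1.77e-06) and Trim AGU (-1.63 ± 0.30, adjusted p = 0.00908). With Plus A its log2 fold change was -0.57 ± 0.04 (adjusted p = 3.13e-06), just under the 1.5-fold limit, and it passed that limit without MC replicate 1 or without Plus A replicate 1. *Peg3* is thus the member that was lower than with MC in every library of all 5 mimics.

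*Plagl1* fell with Trim AG (-0.85 ± 0.13, edgeR adjusted p = 0.000525), and its log2 fold change with Trim AGU was -3.84, a 14.3-fold difference that is given as a description. With miR-125b it was -0.14, also a description. Its value with Trim A (-0.45, adjusted p = 0.0913) did not pass, with a 95% interval of -0.91 to 0.01, and without replicate 1 of Trim A it was -0.76 (adjusted p = 9.96e-06) and called. With Plus A the log2 fold change was positive, 0.51 ± 0.08 (adjusted p = 0.000413), below 1.5-fold. *Mest* and *Grb10* were not called with any mimic. *Mest* had 0.33 with Plus A (adjusted p = 0.000299), -0.35 with Trim A (0.00247) and -0.52 with Trim AG (0.000371), and *Grb10* had 0.23 with Plus A (0.00442) and -0.50 with Trim AGU (0.0210). With Trim AGU *Mest* was at -0.94 ± 0.39 (adjusted p = 0.105), and without replicate 2 it was smaller, -0.59, but called (adjusted p = 0.0013), while *Peg3* was at -1.34 and still called. For *Grb10* with Trim AGU the value without replicate 2 was -0.41, and without replicate 1 it was -0.59 and called.

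**Figure D3:**
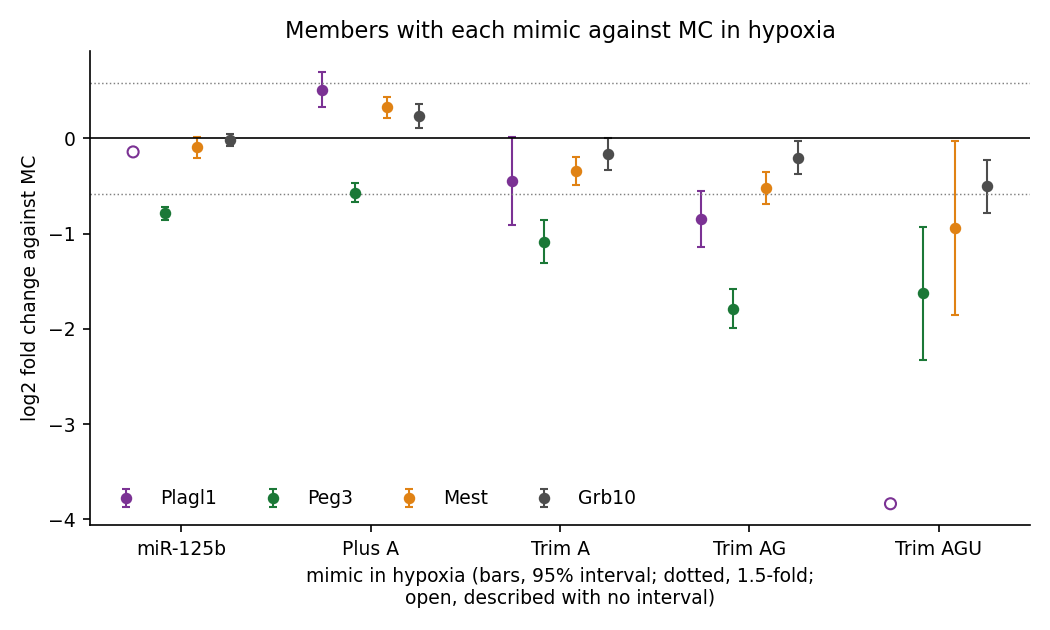
Log2 fold change (vertical axis) of the 4 detected members with each mimic against MC in hypoxia (horizontal axis); points are edgeR estimates from 3 libraries a group, bars are 95% intervals, dotted lines mark 1.5-fold, and the open symbols are described with no interval. *Peg3* lies below zero with all 5 mimics, from -0.57 to -1.79, and *Plagl1* runs from 0.51 with Plus A to -3.84 with Trim AGU.

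How far the 3′ end matters was read from each isomiR against miR-125b at the same dose and time. In hypoxia 9 of 16 values are not descriptions, and 1 of them was called. Over all genes, 19.3% were called with Trim AG, 3.75% with Trim AGU, 2.03% with Plus A and 0.873% with Trim A, and the comparisons share the miR-125b libraries. With Trim AGU that is 565 of 15051 genes, and without replicate 2 of Hypoxia Trim AGU it was 1301 of 15376. *Peg3* fell with Trim AG (-1.01 ± 0.08, edgeR adjusted p = 8.09e-05), which lacks the last 2 bases. *Plagl1*, as a description, had a log2 fold change of 0.65 with Plus A, of -0.31 with Trim A and of -0.71 with Trim AG, and neither its Plus A nor its Trim AG libraries overlapped those of miR-125b. With Plus A the other members also had small positive values that passed the p but not the fold, 0.21 for *Peg3* (adjusted p = 0.00879), 0.42 for *Mest* (0.00252) and 0.25 for *Grb10* (0.0110).

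Trim A and miR-125b, which differ by 1 base, gave no called member in hypoxia. The differences were -0.30 for *Peg3* (95% interval -0.52 to -0.08), -0.26 for *Mest* (-0.42 to -0.09) and -0.15 for *Grb10* (-0.31 to 0.01), with edgeR adjusted p-values of 0.098 to 0.248. For Hypoxia Trim AGU against Hypoxia miR-125b, the contrast that drew attention to *Plagl1*, the log2 fold changes were -3.71 for *Plagl1*, -0.86 for *Mest*, -0.85 for *Peg3* and -0.49 for *Grb10*. Without replicate 2 of Trim AGU these values were -3.36, -0.51, -0.57 and -0.41.

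In normoxia, with libraries outside the contrast that drew attention to *Plagl1*, 1 of 16 values was called: *Plagl1* fell with Trim AGU (-2.10 ± 0.26, edgeR adjusted p = 0.000633), a 4.28-fold difference that was present in all 3 libraries. The members and tests were still chosen with earlier results of these data known. The share of all genes called was 11.4% with Trim AGU, 13.9% with Trim AG, 0.414% with Trim A and 0% with Plus A. For Plus A that is 0 of 14781 genes by edgeR, with 404 at an unadjusted p-value below 0.05 and 1 called by DESeq2. Without replicate 1 of Normoxia Plus A and of Normoxia miR-125b, edgeR called 166 of 14856 genes with Plus A. Leaving out each library in turn kept the change of *Plagl1* with Trim AGU between -2.49 and -1.83 and called, and without replicate 1 of Normoxia miR-125b it was -2.02. *Peg3* had the opposite sign to *Plagl1* here, 0.37 ± 0.10 with Trim AGU (adjusted p = 0.0272, and 0.0745 without replicate 1 of Normoxia miR-125b), under 1.5-fold.

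With Trim AG in normoxia, *Plagl1* (0.26, edgeR adjusted p = 0.0274) and *Peg3* (0.24, adjusted p = 0.0137) were slightly above miR-125b and *Grb10* (-0.37, adjusted p = 0.00506) was below it, all under 1.5-fold. *Mest* was at 0.21 (adjusted p = 0.209), and without replicate 1 of Normoxia miR-125b it was at 0.37 (adjusted p = 0.0077), *Plagl1* at 0.34, *Peg3* at 0.24 and *Grb10* at -0.29, again under 1.5-fold. Trim A and Plus A differed from miR-125b by at most 0.18 in any member. That value was *Plagl1* with Plus A, and without replicate 1 of both groups it was 0.38 (adjusted p = 0.0234), and *Mest* moved from 0.09 to 0.40 (adjusted p = 0.0271), both still under 1.5-fold.

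**Figure D4:**
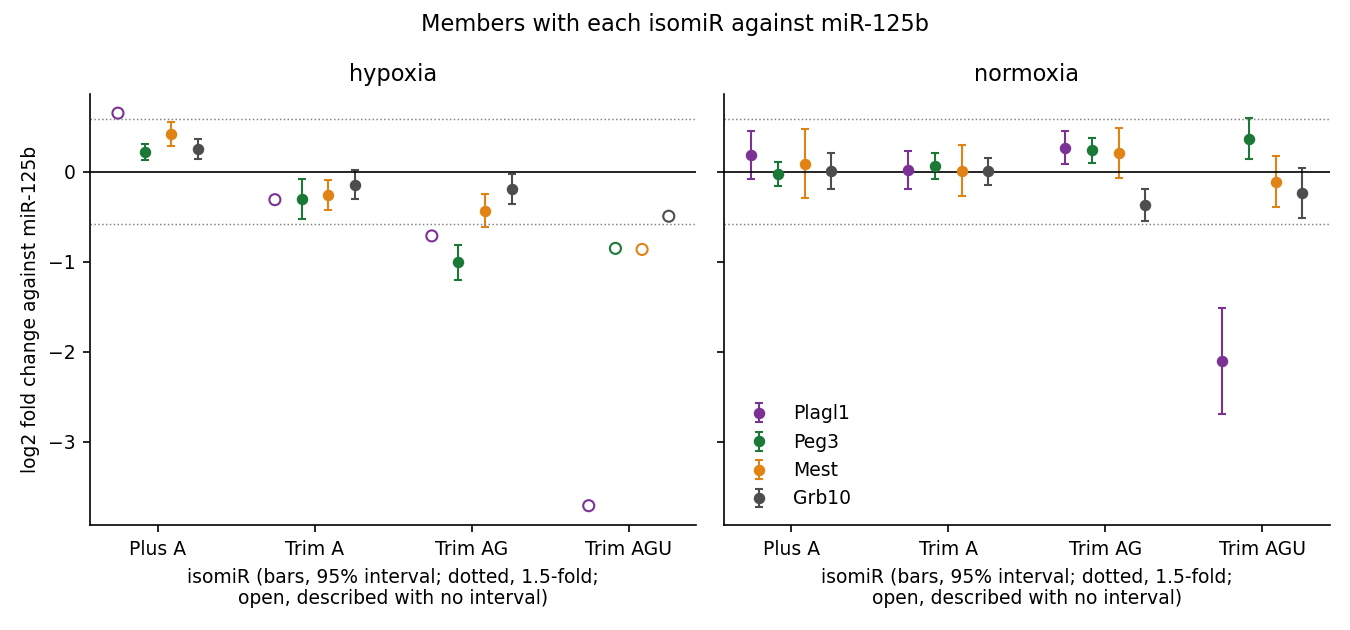
Log2 fold change (vertical axis) of the 4 detected members with each isomiR against miR-125b (horizontal axis), in hypoxia on the left and normoxia on the right; points are edgeR estimates from 3 libraries a group, bars are 95% intervals, dotted lines mark 1.5-fold, and open symbols are described with no interval. *Plagl1* with Trim AGU stands at -3.71 in hypoxia and -2.10 in normoxia, and *Peg3* with Trim AG is at -1.01 in hypoxia but 0.24 in normoxia.

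Trimming was also followed base by base, from Trim A to Trim AG and from Trim AG to Trim AGU. Of 15 values that are not descriptions 2 were called, against 9.43% and 0.436% of all genes for the 2 steps in hypoxia and 9.14% and 2.84% in normoxia. The 0.436% is 66 of 15151 genes, and without replicate 2 of Hypoxia Trim AGU it was 429 of 15610. The step from Trim AG to Trim AGU, the loss of 1 U, lowered *Plagl1* in normoxia (-2.36 ± 0.25, edgeR adjusted p = 0.00201), from 30.02 to 5.69 CPM. In hypoxia the same step gave *Plagl1* a log2 fold change of -2.99, from 20.7 to 2.51 CPM, given as a description. These are the same 3 Hypoxia Trim AGU libraries as in the contrasts with MC and miR-125b. The step from Trim A to Trim AG lowered *Peg3* in hypoxia (-0.71 ± 0.12, adjusted p = 0.00856), a call that was lost without replicate 3 of Hypoxia Trim AG (adjusted p = 0.0525). In normoxia *Grb10* had -0.38 at that step (adjusted p = 0.000687) and *Plagl1* 0.24 (adjusted p = 0.0222), both under 1.5-fold.

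Hypoxia, with its change of medium, was compared with normoxia within each mimic, and 4 of 18 values that are not descriptions were called. Over all genes, Trim AG had 32.8% called, Trim AGU 27%, Trim A 26.5%, Plus A 22.8% and miR-125b 20.9%. With Plus A, *Plagl1* (0.88 ± 0.11, edgeR adjusted p = 0.000119) and *Mest* (0.84 ± 0.13, adjusted p = 0.000430) rose in hypoxia. Without replicate 1 of Normoxia Plus A the values were 0.76 and 0.68 and both stayed called. *Peg3* fell in hypoxia with Trim AG (-1.28 ± 0.10, adjusted p = 1e-05) and with Trim AGU (-1.25 ± 0.30, adjusted p = 0.0182). The second of these calls was lost without replicate 2 (adjusted p = 0.0743) or replicate 3 (adjusted p = 0.0600) of Normoxia Trim AGU, and without replicate 2 of Hypoxia Trim AGU it was kept at -0.97.

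With miR-125b, *Mest* (0.51, edgeR adjusted p = 0.00475) was above normoxia by less than 1.5-fold, and without replicate 1 of Normoxia miR-125b it was at 0.67 and called. *Plagl1* had 0.42 with miR-125b, a description, and 0.50 without that library. *Peg3* with miR-125b hardly moved, -0.06 with a 95% interval of -0.17 to 0.05. With Trim AGU *Plagl1* was lower in hypoxia than in normoxia by a log2 fold change of -1.17, given as a description. *Plagl1* with Trim AG also had a negative sign, -0.53 ± 0.12 (adjusted p = 0.00508), under 1.5-fold, and -0.66 and called without replicate 1 of Hypoxia Trim AG.

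Whether an isomiR acted differently in hypoxia and in normoxia was tested as an interaction, the effect against miR-125b in hypoxia minus that in normoxia, called at an adjusted p-value below 0.05. Of 9 values that are not descriptions 2 were called, both with Trim AG, where 22.7% of all genes were called; the share was 0.0385% with Plus A, 0.811% with Trim A and 0.966% with Trim AGU. The difference was -1.26 ± 0.11 for *Peg3* (edgeR adjusted p = 2.29e-05) and -0.66 ± 0.16 for *Mest* (adjusted p = 0.0106), and as a description -0.99 for *Plagl1*. Without replicate 1 of Normoxia miR-125b these were -1.26, -0.82 and -1.07, and with all libraries in 1 fit *Mest* was not called (adjusted p = 0.177). The value of *Peg3* with Trim A was -0.36 (adjusted p = 0.117), and it was -0.47 and called without replicate 1 of Hypoxia Trim A. *Peg3*, *Plagl1* and *Mest* had a lower mean under Trim AG than under miR-125b in hypoxia and a slightly higher one in normoxia, and *Grb10* had 0.16 ± 0.11. For Trim AGU, described with no p, the interaction values were -1.58 for *Plagl1*, -1.19 for *Peg3*, -0.73 for *Mest* and -0.22 for *Grb10*. Without replicate 2 of Hypoxia Trim AGU they were -1.27, -0.94, -0.41 and -0.18. Over all genes, 150 of 15525 were called in this interaction, and 774 of 15796 without that library. Without replicate 1 of Normoxia miR-125b and of Normoxia Plus A it was 32 of 15827. The same omission left 2947 of 15870 called with Trim AG, 0 of 15833 with Trim A and 14 of 15783 with Plus A.

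Normoxia MC has no libraries here, and its level is known from a table of group means, an expression signal set on another scale than CPM. In that table the mean signal of *Plagl1* was 814 in Normoxia Plus A and 569 in Normoxia MC, and that of *Peg3* was 6270 and 10478. *Peg3* thus had the lower mean with Plus A in normoxia as well, without a replicate to judge it by. The means were 894 and 858 for *Mest* and 7419 and 6584 for *Grb10*.

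Of 50 other genes reported as imprinted, 42 were in the tables, and 32 to 34 of their entries passed the filter in each comparison with MC, as *Gnas* has 2. Called entries were 4 higher and 10 lower of 34 with miR-125b, 4 and 8 of 33 with Plus A, 6 and 9 of 34 with Trim A, 4 and 15 of 34 with Trim AG and 4 and 13 of 32 with Trim AGU. These come to 55.9% of the entries with Trim AG (37.2% of all genes), 53.1% with Trim AGU (23.8%), 44.1% with Trim A (28.1%), 41.2% with miR-125b (21.9%) and 36.4% with Plus A (24.8%). The median log2 fold change of these entries was -0.25, -0.23, -0.28, -0.31 and -0.56 for the 5 mimics, against a median of all genes between -0.02 and 0.00. The lower calls were more numerous than the higher ones in each comparison, as they also were over all genes.

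6 of these genes fell with all 5 mimics in hypoxia, *Dcn*, *Gatm*, *Ddc*, *Igf2r*, *Slc38a4* and *Cd81*, and *Phlda2* and *Impact* rose with all 5, out of 32 entries tested in each comparison. The comparisons share the MC libraries, and over all genes 6.22% fell and 2.75% rose with all 5. *Dcn*, which encodes the matrix proteoglycan decorin, went from 42.2 ± 2.87 CPM with MC to 4.77 ± 1.03 CPM with Trim AG (-3.08 ± 0.15, edgeR adjusted p = 1.53e-06), and its smallest change was -1.70, with miR-125b. *Igf2r*, whose receptor carries IGF2 to the lysosome, was at 336, 354 and 378 CPM with MC and at 153, 170 and 164 CPM with miR-125b (-1.09 ± 0.05, adjusted p = 1.02e-08). *Igf2*, the fetal growth factor, was at 1250 ± 20.4 CPM with MC and passed the call with Trim A (-0.74), Trim AG (-1.29) and Trim AGU (-0.91), while its values with miR-125b (-0.43) and Plus A (-0.53) were under 1.5-fold. *Phlda2*, a brake on placental growth, was at 0.438 ± 0.0394 CPM with MC and 2.09 ± 0.0742 CPM with Trim AG (2.31 ± 0.22, adjusted p = 4.02e-05). *Rasgrf1*, a Ras activator, was at 2.42 ± 0.194 CPM with MC and 0.364 ± 0.239 CPM with Trim AGU (-2.58 ± 0.55, adjusted p = 0.0154).

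**Figure D5:**
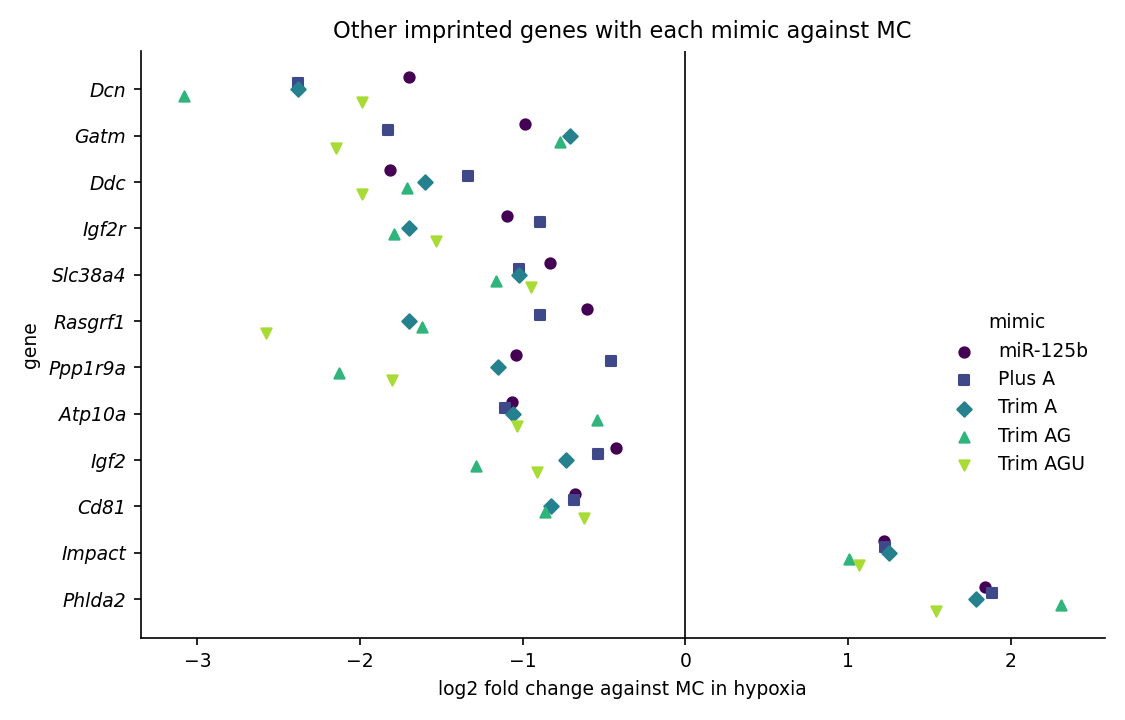
Log2 fold change (horizontal axis) of 12 other imprinted genes (vertical axis) with each of 5 mimics against MC in hypoxia, 1 symbol per mimic, each from 3 libraries a group. The 12 are a selection from 23 genes called with any mimic. Not shown are *Blcap*, *Nap1l4*, *Copg2*, *Mkrn3* and *Kcnq1*, called higher with at least 1 mimic, *Gnas*, called both ways, and others called lower. *Dcn* reaches -3.08 with Trim AG, *Rasgrf1* -2.58 with Trim AGU, and *Phlda2* and *Impact* lie to the right of zero with all mimics.

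The other comparisons named some of these genes and a few more. *Dcn*, *Ppp1r9a* and *Igf2* fell with Trim AG against miR-125b in hypoxia (-1.39, -1.10 and -0.87, edgeR adjusted p = 0.000464, 0.0254 and 0.000350), and *Gatm*, the first enzyme of creatine synthesis, fell with Trim AGU (-1.17, adjusted p = 0.00999). In normoxia, *Gatm* (0.91, adjusted p = 0.00888) and *Atp10a* (0.71, adjusted p = 0.000535) rose with Trim AG, and *Blcap* (-0.90, adjusted p = 1.88e-05) and *Impact* (-0.60, adjusted p = 4.66e-05) fell. Without replicate 1 of Normoxia miR-125b the values were 0.64, 0.70, -0.95 and -0.62, all still called. Base by base in hypoxia, *Copg2* (-0.90, adjusted p = 0.00495) and *Slc22a18* (-0.87, adjusted p = 0.0287) fell from Trim A to Trim AG and *Gatm* (-1.38, adjusted p = 0.0375) from Trim AG to Trim AGU, and in normoxia *Dcn* (-0.89, adjusted p = 0.0214) fell from Trim A to Trim AG. Against normoxia, hypoxia raised *Dcn* with miR-125b (2.94, adjusted p = 2.59e-06) and *Phlda2* with Trim AG (1.90, adjusted p = 0.00439), and lowered *Gatm* (-2.58, adjusted p = 0.000270) and *Rasgrf1* (-2.41, adjusted p = 0.0189) with Trim AGU. The value of *Dcn* without replicate 1 of Normoxia miR-125b was 2.74, and those of *Gatm* and *Rasgrf1* without replicate 2 of Hypoxia Trim AGU were -2.67 and -2.80, all still called. *H19* and *Meg3* were not found under those names.

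Close relatives of the members were also read against MC in hypoxia. All 7 listed were tested, and 1 was called with each mimic (14.3%), against 21.9% to 37.2% of all genes. *Cdkn1a*, *Cdkn1b*, *Dlk2* and *Grb14* were among those not called. *Plag1* and *Plagl2*, the zinc-finger relatives of *Plagl1*, were not called with any mimic, with *Plagl2* at 23.2 ± 2.10 CPM with MC and 18.6 ± 7.13 CPM with Trim AGU. *Grb7*, a relative of *Grb10*, was called higher with all 5, from 0.369 ± 0.0604 CPM with MC to 2.58 ± 0.312 CPM with miR-125b (2.82 ± 0.24, edgeR adjusted p = 1.85e-06) and 0.936 ± 0.151 CPM with Trim AGU (1.47 ± 0.32, adjusted p = 0.0172). Of 6 genes reported elsewhere as targets of PLAGL1, 4 were tested against MC. *Socs3*, an inhibitor of cytokine signalling, fell with all 5 mimics, from 9.82 ± 1.58 CPM with MC to 4.72 ± 0.825 CPM with miR-125b (-1.02 ± 0.17, adjusted p = 0.000289). *Tcf4* fell with Trim A (-0.69 ± 0.20, adjusted p = 0.0190) and *Apaf1*, the core of the apoptosome, with Trim AGU (-1.01 ± 0.23, adjusted p = 0.0185). *Slc2a4* was not called, and *Pparg* and *Adcyap1r1* did not pass the filter.

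Across the 33 libraries the genes whose level followed *Plagl1* most closely were *Rab5b* (Pearson r = 0.945), *Lrrc41* (0.920), *Tle4* (0.917), *Tgfbr1* (0.915) and *Sec14l1* (0.909), among 11183 named genes whose mean was 1 CPM or more. The r was taken on log2 (CPM + 0.5), and these libraries share groups and depths, so it is a description. *Rab5b*, a small GTPase of early endosomes, was at 267 ± 3.77 CPM in Hypoxia miR-125b and 134 ± 12.7 CPM in Hypoxia Trim AGU, and at 244 ± 7.84 and 145 ± 9.17 CPM in the same groups of normoxia. *Rab5b*, named because it follows *Plagl1*, was thus lower with Trim AGU than with miR-125b in both conditions. By group means 3 of these 5 genes remained among the 5 closest, and by rank correlation 1 did.

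Among the members, *Plagl1* tracked *Grb10* with r = 0.937 and *Mest* with r = 0.877 over the 18 hypoxic libraries, and with r = 0.408 and 0.489 over the 15 normoxic ones. *Plagl1* and *Peg3* had r = 0.732 in hypoxia and -0.469 in normoxia. The libraries share mimics within each condition and replicate 2 of Hypoxia Trim AGU is low for all 4 members, so these values describe the libraries and carry no test.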

How the data were processed

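The series holds 36 RNA libraries of H9C2 cells, of which 33 had counts and were used. The deposited tables hold the raw count of each gene per library as the authors made it, and HISAT2 and StringTie are named in the submitters' processing notes without versions. The authors also deposited FPKM values, which scale a count by gene length and library total, and for Normoxia MC the deposited table gives only a mean expression signal per group. Columns with the authors' own fold changes and p-values were not used. The tables were joined by gene identifier, and a gene left out of a table was given 0. Libraries were not stranded, so overlapping and antisense transcripts cannot be told apart.

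Each comparison was fitted over all genes, using only the libraries of the groups compared, with edgeR 4.0.16 (R 4.3.3), TMM normalization, filterByExpr and the quasi-likelihood test, with Benjamini-Hochberg adjustment. A gene was called at an adjusted p below 0.05 and a change of at least 1.5-fold, and interactions at the adjusted p alone. SE is that of the log2 fold change. Alternatives were DESeq2 1.42.0, other scalings, no filter on low counts, a shared fit, a replicate block, other fold limits and each library left out. The fits were checked on simulated counts in which 200 genes were changed. The labels do not say whether replicates are separate cultures, so p-values measure the spread between these libraries, which may be technical. Replicates differed by more than sampling noise (chi-square per gene 4.97 to 236).

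The members, gene lists and tests were chosen with earlier results of these data known. Named genes are the members, *Igf2* and *Igf2r*, the largest called imprinted genes without overlap per set of comparisons (up to 4 each, mean of at least 1 CPM), and called relatives or reported targets. *Ddc*, *Slc38a4*, *Cd81*, *Nap1l4*, *Mkrn3*, *Kcnq1*, *Plag1*, *Plagl2*, *Cdkn1a*, *Cdkn1b*, *Dlk2*, *Grb14* and *Slc2a4* were named after their values were seen. Leaving out the libraries in doubt for the other imprinted genes was chosen after seeing the data. Python 3.11.15, pandas 2.3.3, numpy 2.4.6 and matplotlib 3.10.9 were used.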

Additional observations from a re-analysis of the deposited data

Results flagged for a closer look

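The effect of Trim AG against miR-125b differed between hypoxia and normoxia for *Peg3* and *Mest*, by the test of the difference itself. The log2 difference was -1.26 for *Peg3* and -0.66 for *Mest*. With all libraries in 1 fit *Peg3* was still called and *Mest* was not. In the same test 22.7% of all genes passed.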

How the results depend on the processing

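Values given as a description are not counted here. Of 39 member values with an adjusted p below 0.05, 15 were called. Over 492 alternative values 479 kept their call or their lack of one, 4 lost the call, 9 gained it and 0 changed sign. An uncalled value, under 1.5-fold, counts as kept even where its adjusted p rose above 0.05. That happened to *Plagl1* with Trim AG against miR-125b in normoxia (edgeR adjusted p = 0.111 without Normoxia Trim AG replicate 3), among others. Without a fold limit the called members were 13 against MC, 5 and 5 for isomiRs read against miR-125b (hypoxia, normoxia), 4 for the trimming steps and 10 for hypoxia against normoxia. With a limit of 2-fold there were 3 against MC, 1 for the trimming steps and 2 for hypoxia against normoxia. The shares of all genes given above are for the 1.5-fold limit, so these counts have no share to be read against. Without a fold limit many genes pass: against MC, from 6575 of 15026 (Trim AGU) to 9759 of 15315 (Trim AG) had an unadjusted edgeR p-value below 0.05. DESeq2 called 4 interactions in place of 2, adding *Peg3* with Plus A (DESeq2 adjusted p = 0.0498) and Trim A (0.0463). It also called more of all genes than edgeR did: 439 of 15569 with Plus A, 1189 of 15534 with Trim A and 4126 of 15603 with Trim AG. With single libraries left out the counts were 5 to 6 against MC, 1 to 1 for isomiRs in hypoxia and in normoxia, 1 to 2 for trimming steps (1 without Hypoxia Trim AG replicate 3), 3 to 5 for hypoxia against normoxia and 2 to 3 for interactions (3 without replicate 1 of Hypoxia Trim A). With all libraries in 1 fit there was 1 called interaction, as *Mest* with Trim AG had adjusted p = 0.177; the cause was not tested. Total-count scaling moved the median of all genes by -0.139 for Trim AGU against MC, 0.109 for hypoxia against normoxia with Plus A and -0.132 for the Trim AGU interaction, and called *Peg3* with Plus A and *Grb10* with Trim AGU lower than MC. Same-numbered replicates had deviations correlated from -0.315 to 0.508, and only 1 of 22 comparisons had all 3 above 0.1, so the numbers were not taken as pairs. In 3 of the 22 comparisons, all of them trimming steps, each library was closest to the one with its own number. With the replicate block the counts were the same, 5 against MC and 2 interactions among them, and no followed call changed. The block did move edgeR adjusted p-values, at the trimming steps and elsewhere. *Grb10* with Trim AGU against MC in hypoxia went from 0.0210 to 0.0521, under 1.5-fold. *Plagl1* from Trim A to Trim AG in hypoxia went from 0.273 to 0.0107, under 1.5-fold. From Trim AG to Trim AGU in hypoxia the block left 3 called genes in place of 66. The other trimming steps had more with it, as from Trim A to Trim AG in hypoxia (1925 in place of 1441). Away from these steps, Trim AGU read on Hypoxia miR-125b had 54 in place of 565, and Trim A had 7 in place of 132. The interaction with Trim AGU had 15 in place of 150, and that with Trim A had 0 in place of 126.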
